A study of Mus musculus with 8 samples.

Results

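The guanylate-binding proteins (GBPs) examined here were the 7 genes Gbp2, Gbp3, Gbp4, Gbp5, Gbp6, Gbp7 and Gbp9, chosen by symbol from the 45706 gene rows of the deposited count table. All 7 were in the table and all 7 passed the filter on low counts, in which 15049 genes were tested. The cells were primary embryonic fibroblasts of C57BL/6 mice, held overnight in low serum. The knockout cells (KO, labelled crel-/-rela-/-) lack RelA and cRel, NF-kB subunits that carry activation domains, as RelB also does, and the wild-type cells (WT) carry both. Each genotype gave 1 library of chromatin-associated RNA, the RNA that is still on or near its gene, at 0 min without treatment and at 15, 45 and 60 min of tumour necrosis factor (TNF) at 10 ng/ml, 8 libraries in all. The series title asks how RelA selects and drives its targets in inflammation. There was no untreated library at the later times, so TNF and time in culture cannot be told apart.

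GBPs are large GTPases of the dynamin superfamily that are best known as products of interferon-gamma signalling. They bind and hydrolyse GTP, assemble on the membranes of vacuoles that hold parasites or bacteria, and help to open those vacuoles and to start inflammasomes, the complexes that activate inflammatory caspases. Their promoters are classically driven by interferon signalling through GAS elements and interferon-stimulated response elements (ISRE), and TNF activates NF-kB, which binds kB sites. In the mouse the genes lie in a cluster on chromosome 3 and in another on chromosome 5.

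The promoters of the chromosome 3 members are shown because they carry matches to these elements. A link between the matches and the response to TNF was not tested. RefSeq windows (GRCm38.p6, the assembly also called mm10) were found for 4 of the 7 members, Gbp2, Gbp3, Gbp5 and Gbp7. Gbp4, Gbp6 and Gbp9 had no entry. Each line runs 5′ to 3′ from 250 bases before the start to 20 after it, with capitals for matches to the kB consensus, to the ISRE core (GAAA, any 2 bases, GAAA) and to the GAS motif (TTCNNNGAA), each searched on both strands. Read on the strand shown, every ISRE core here appears as TTTC, 2 bases, TTTC.
Gbp5 (chr3:142496684-142496953, plus strand): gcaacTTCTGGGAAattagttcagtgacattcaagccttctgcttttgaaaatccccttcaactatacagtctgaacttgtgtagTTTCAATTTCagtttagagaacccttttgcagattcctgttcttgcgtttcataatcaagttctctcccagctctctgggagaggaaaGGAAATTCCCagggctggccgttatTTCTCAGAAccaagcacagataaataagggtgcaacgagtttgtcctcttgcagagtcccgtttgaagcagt
Gbp2 (chr3:142620413-142620682, plus strand): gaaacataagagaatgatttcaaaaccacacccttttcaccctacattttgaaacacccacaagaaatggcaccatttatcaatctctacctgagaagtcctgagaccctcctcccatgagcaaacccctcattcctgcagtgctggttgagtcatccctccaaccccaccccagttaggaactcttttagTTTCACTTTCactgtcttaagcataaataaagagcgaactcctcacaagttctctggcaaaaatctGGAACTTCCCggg
Gbp7 (chr3:142530086-142530355, plus strand): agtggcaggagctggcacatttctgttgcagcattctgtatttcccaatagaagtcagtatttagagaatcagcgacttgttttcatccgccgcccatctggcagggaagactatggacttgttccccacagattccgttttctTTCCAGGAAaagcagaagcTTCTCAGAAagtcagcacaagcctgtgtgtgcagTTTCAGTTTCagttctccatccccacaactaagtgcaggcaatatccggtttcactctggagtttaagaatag
Gbp3 (chr3:142559794-142560063, plus strand): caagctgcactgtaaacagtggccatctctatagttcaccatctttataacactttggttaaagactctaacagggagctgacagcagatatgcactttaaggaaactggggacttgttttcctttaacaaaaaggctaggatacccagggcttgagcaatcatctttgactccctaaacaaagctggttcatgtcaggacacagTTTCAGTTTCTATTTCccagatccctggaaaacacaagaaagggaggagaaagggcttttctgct

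Gbp5 held matches to all of the motifs. Its kB match spanned bases -77 to -68 from the start (the start base being 0), its ISRE core -165 to -156, and its GAS matches -245 to -237 and -52 to -44. Gbp2 held an ISRE core at -59 to -50 and a kB match just inside the transcript, at 7 to 16. Gbp7 held an ISRE core at -53 to -44 and GAS matches at -106 to -98 and -87 to -79, without a kB match in this window. In Gbp3 the capitals mark a pair of overlapping ISRE cores at -45 to -36 and -39 to -30, and the window of its second RefSeq start held no match. Among all 32851 promoter windows of 300 bases, 8.46% held a kB match, 3.44% an ISRE core, 8.3% a GAS match, and 0.247% both a kB match and an ISRE core. These matches are descriptions of letters and were not measured as bound sites. The RefSeq start of Gbp5 lay inside the span of its deposited gene model.

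**Figure D1:**
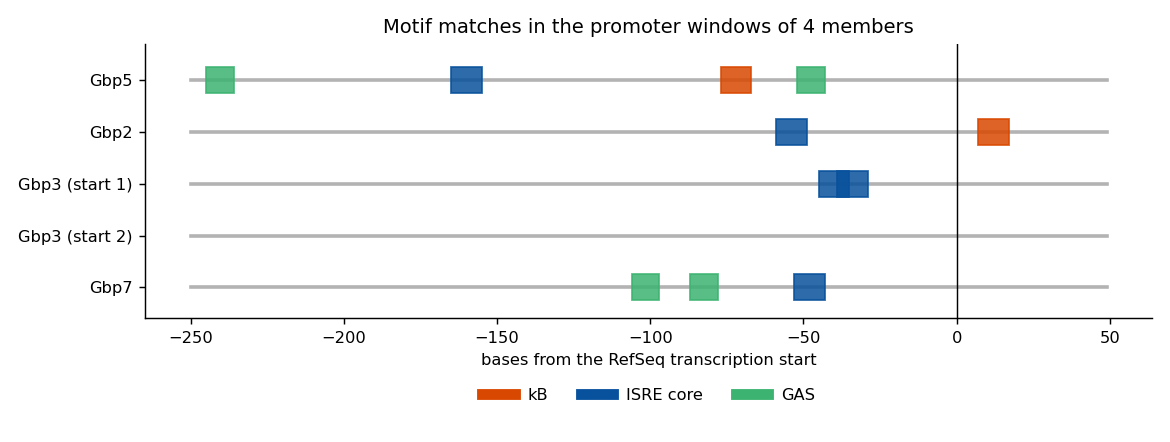
Positions of kB (orange), ISRE core (blue) and GAS (green) matches in the 5 RefSeq promoter windows of Gbp5, Gbp2, Gbp3 and Gbp7; the x axis gives bases from the transcription start. An ISRE core lay within 60 bases before the start in Gbp2, Gbp7 and the first window of Gbp3, and farther away in Gbp5, the window with a kB match before the start.

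The libraries held 12359817 to 15607331 counts, of which 3948194 to 5644974 lay outside the 3 gene models with the most counts. The exon counts of the targeted genes do not check the labels, since the labels do not say which parts of the alleles were removed. Rela had 306, 241, 291 and 324 counts in KO and 324, 406, 704 and 589 in WT at 0, 15, 45 and 60 min, and Rel had 478, 308, 538 and 633 in KO and 151, 173, 805 and 506 in WT. All 12 fibroblast markers were detected in both genotypes, with summed levels of 10200 to 13500 CPM in KO and 9290 to 11800 CPM in WT. CPM is the usual depth-normalized count, here with library sizes scaled by TMM, which corrects for library composition. The leukocyte markers did not match between genotypes: their summed level was 6.11 to 8.38 CPM in KO and 52.0 to 74.2 CPM in WT. Over all times 8 of the 12 were called lower in KO, where 9.44% of all genes tested were called lower. Ptprc, the pan-leukocyte antigen CD45, had 1, 2, 0 and 1 counts in KO and 188, 168, 156 and 144 in WT. Adgre1, the macrophage antigen F4/80, had 0, 0, 0 and 2 counts in KO and 132, 112, 72 and 88 in WT, and the T cell marker Cd3e was at 0 in every library. The KO library at 0 min stood apart, with summed cartilage markers at 398 CPM against 20.2 to 49.9 CPM in the other KO libraries and 7.26 to 11.5 CPM in WT. Its summed epithelial markers were at 7.47 CPM, against 0.441 to 1.05 CPM in the other KO libraries and 0.0719 to 0.939 CPM in WT. In bulk RNA, fewer cells of a type and less RNA per cell cannot be told apart. The calls of the members, and a part of the other fitted values, that rest on the KO library at 0 min are therefore also given without it. It was left out of the fit, or 15 min was taken as the baseline. Where it is left out of the genotype comparison over all times, WT at 0 min has no partner. That comparison then rests on 15, 45 and 60 min only. With the 15 min baseline the KO library at 0 min stayed in the scaling and in the filter. Ratios of single libraries to KO at 0 min and the correlations over 8 libraries keep it.

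Transcripts of most GBPs were lower in KO than in WT. Gbp5, Gbp2, Gbp3, Gbp7 and Gbp9 were called lower over the 4 times, and Gbp6 joined them when the 45 and 60 min libraries were compared alone. In WT cells Gbp5 and Gbp3 were called higher after TNF, though the call of Gbp3 was lost in 5 of 17 alternatives. No member was called after TNF in KO cells. The difference between the responses of the genotypes, tested itself, was called for no member. Summed over the 7 members, the level was 9.56, 7.06, 7.15 and 4.88 CPM in KO at 0, 15, 45 and 60 min, against 28.2, 24.2, 48.2 and 78.5 CPM in WT. The WT sum was highest at 60 min. The KO sum was highest at 0 min, in the library that stood apart, and among the other KO libraries at 45 min.

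**Figure D2:**
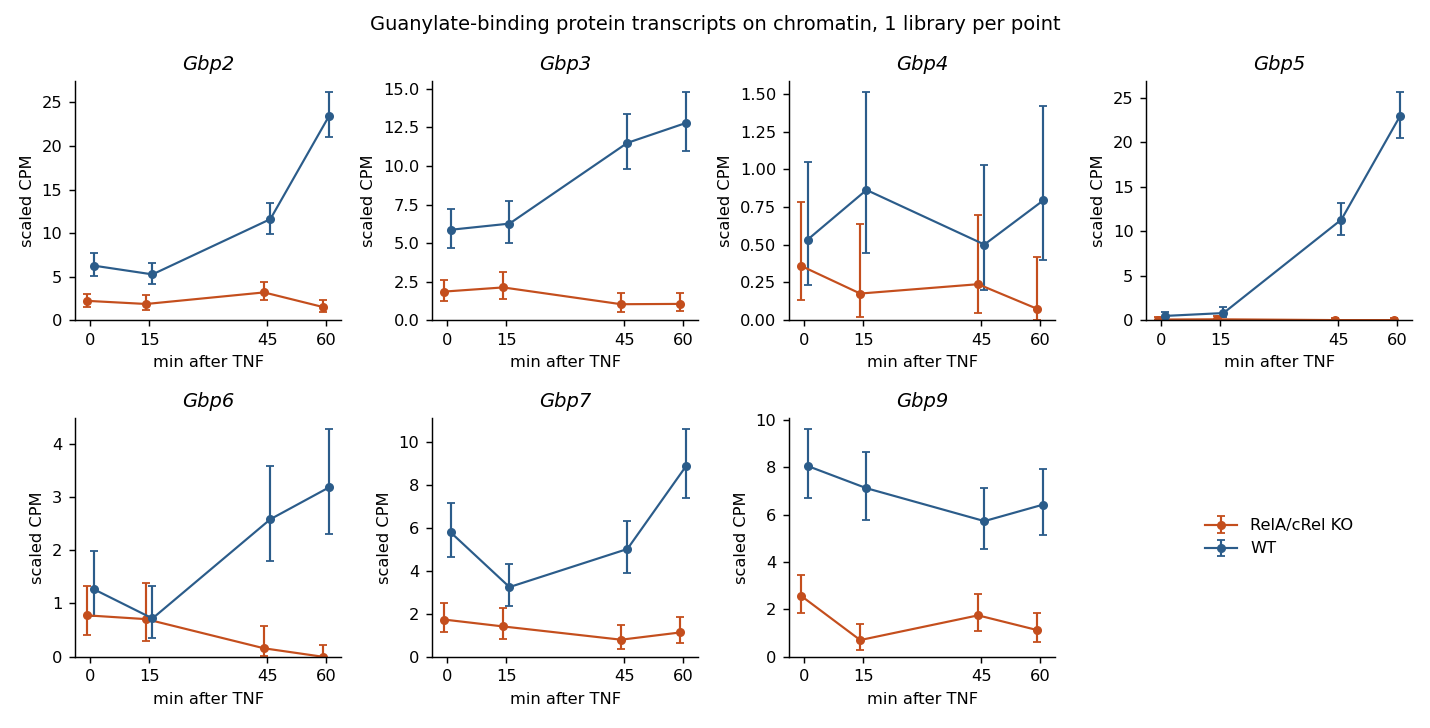
Level of each member (TMM-scaled CPM, linear axis from 0) against min after TNF, with 1 library per point, KO in orange and WT in blue; bars are exact 95% counting intervals, or the limit of 3 counts where a library had 0. In WT, Gbp5 reached 23.0 CPM and Gbp2 23.5 CPM at 60 min, while Gbp9 was between 5.73 and 8.06 CPM at every time.

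Gbp5 (chromosome 3, 142493978 to 142522344, plus strand, mm10; ENSMUSG00000105504.2), which in mouse macrophages promotes assembly of the NLRP3 inflammasome, was almost undetected in KO. It had 1, 1, 0 and 0 counts in KO at 0, 15, 45 and 60 min, and 7, 11, 158 and 318 counts in WT. The groups did not overlap, and the WT libraries at 45 and 60 min were high while those at 0 and 15 min were near the limit of detection. A count of 0 allows up to 3 counts, which is 0.238 CPM in KO at 45 min and 0.225 CPM in KO at 60 min, against measured levels of 11.3 and 23.0 CPM in WT. With 3 counts allowed per library, Gbp5 was thus at least 47.5-fold lower in KO at 45 min and at least 102-fold lower at 60 min. The exact 95% intervals, which also cover counting error in WT, began at 38.2-fold and 82.5-fold. Over both late times, 0 counts in KO stood against 476 in WT. With 3 counts allowed over the group this is at least 148-fold lower, and the exact 95% interval began at 120-fold. At 0 and 15 min single counts in KO gave ratios to WT of 0.128 (95% interval 0.00284 to 0.998) and 0.112 (0.00259 to 0.767).

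Within WT, Gbp5 at 45 min was 24.3 times its 0 min level (95% interval 11.5 to 61.3), and at 60 min 49.3 times (23.6 to 124). At 15 min the ratio was 1.70 (0.601 to 5.16), so a change by then was not detectable at this depth. In the fit over all genes, the mean of 45 and 60 min was above 0 min by a log2 fold change of 5.17 ± 0.60 (SE; edgeR quasi-likelihood test, adjusted p = 0.000460). Its share of the summed counts of the 7 members was 0.625%, 1.25%, 0% and 0% in KO and 1.65%, 3.26%, 23.4% and 29.3% in WT.

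Gbp2 (chromosome 3, 142620602 to 142638008, plus strand; ENSMUSG00000028270.10), a prenylated GBP that coats parasite vacuoles and cytosolic bacteria in mouse cells, had 37, 21, 40 and 20 counts in KO and 94, 73, 162 and 325 counts in WT. All 4 KO libraries lay below all 4 WT libraries, and the gap was widest at 60 min. The ratio of KO to WT was 0.353 (95% interval 0.235 to 0.522) at 0 min and 0.0639 (0.0385 to 0.100) at 60 min, intervals that do not meet. In WT, Gbp2 at 60 min was 3.75 times its level at 0 min (2.97 to 4.77), and at 45 min 1.85 times (1.43 to 2.41). The late WT value of 1.48 ± 0.41 on the log2 scale did not pass in the edgeR test (adjusted p = 0.0571), and passed in 6 of 17 alternatives. In KO, the value at 45 and 60 min relative to 0 min was 0.07 ± 0.54, and -0.17 when scaled by total counts, and relative to 15 min it was 0.32 ± 0.61.

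Gbp3 (chromosome 3, 142560026 to 142573209, plus strand; ENSMUSG00000028268.12), a member of the cluster whose deletion leaves mice open to Toxoplasma gondii, had 31, 24, 13 and 14 counts in KO and 88, 87, 161 and 177 counts in WT. The groups did not overlap, and the late libraries were the lowest of KO and the highest of WT. In WT, the late libraries were above 0 min by 1.05 ± 0.25 (log2, edgeR adjusted p = 0.0304), a call lost in 5 of 17 alternatives, among them the fit without the WT library at 60 min. In KO they stood at -0.83 ± 0.38 (adjusted p = 0.280), and at -1.02 ± 0.40 relative to 15 min (adjusted p = 0.265). At 60 min Gbp3 was 12.2-fold lower in KO (7.06 to 22.7), against 3.16-fold (2.08 to 4.93) at 0 min.

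Gbp7 (chromosome 3, 142530342 to 142550149, plus strand; ENSMUSG00000040253.13), linked to assembly of the NADPH oxidase in mouse macrophages, had 29, 16, 10 and 15 counts in KO and 87, 45, 70 and 123 counts in WT. All KO values were below all WT values, with the lowest WT library at 15 min. Its late WT value of 0.26 ± 0.35 on the log2 scale was not called (edgeR adjusted p = 0.748) and stood at -0.22 without the WT library at 60 min. The ratio of KO to WT was 0.299 (95% interval 0.189 to 0.460) at 0 min and 0.127 (0.0688 to 0.217) at 60 min, intervals that overlap.

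Gbp9 (chromosome 5, 105077630 to 105139539, minus strand; ENSMUSG00000029298.13) had 43, 8, 22 and 15 counts in KO and 121, 99, 80 and 89 counts in WT. It was high in WT from the start and its WT values after TNF were all below the 0 min value, unlike those of Gbp5, Gbp2 and Gbp3 at 45 and 60 min. The late WT value was -0.41 ± 0.28 on the log2 scale (edgeR adjusted p = 0.475). KO libraries lay below WT libraries at each time, by 3.14-fold (95% interval 2.20 to 4.55) at 0 min and 10.1-fold (4.92 to 24.0) at 15 min, where the KO library had 8 counts.

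Gbp6 (chromosome 5, 105270702 to 105293698, minus strand; ENSMUSG00000104713.2) had 13, 8, 2 and 0 counts in KO and 19, 10, 36 and 44 counts in WT. The groups overlapped at the early times and parted at 45 and 60 min. At 60 min the 0 counts in KO, with a limit of 3 counts or 0.225 CPM, stood against 3.18 CPM in WT. With that limit Gbp6 was at least 14.1-fold lower, and the exact 95% interval began at 11-fold. Over both late times 2 counts in KO stood against 80 in WT, a 37.3-fold lower level (95% interval 9.99 to 313). The counts of Gbp6 are uncertain: 29.0% of its exon bases also belong to Gm43302, a model on the same strand that had 0 counts in every library, and 70.7% of the windows of 50 bases (the read length) in its annotated transcripts also occur in another gene. For the other members this share of windows was 1.44% (Gbp5) to 12.7% (Gbp7).

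Gbp4 (chromosome 5, 105115767 to 105139586, minus strand; ENSMUSG00000079363.5), reported in mouse cells to restrain the interferon regulator IRF7, was the member with the fewest counts. It had 6, 2, 3 and 1 counts in KO and 8, 12, 7 and 11 counts in WT. The groups did not overlap in scaled counts, yet no library reached 1 CPM. The ratio of KO to WT was 0.673 (95% interval 0.192 to 2.21) at 0 min and 0.0944 (0.00219 to 0.650) at 60 min, where KO had 1 count. Its exons share 60 bases with those of Gbp9 and 61 with those of Gbp8.

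Levels were compared between members per kb of exon, since the members' exon lengths ran from 2516 bases (Gbp2) to 7494 bases (Gbp4). Gbp2 ranked first in all 8 libraries, at 0.879, 0.736, 1.26 and 0.596 CPM per kb in KO and 2.49, 2.09, 4.61 and 9.33 CPM per kb in WT. Its ratio to Gbp3, next after it in 7 of them, had an interval that included 1 in KO at 0 min (1.55, 95% interval 0.935 to 2.58), 15 min (1.14, 0.601 to 2.13) and 60 min (1.85, 0.891 to 3.97) and in WT at 15 min (1.09, 0.787 to 1.5). At 0 min in WT the order was Gbp2, Gbp3, Gbp9, Gbp7, Gbp6, Gbp4 and Gbp5, in which Gbp3 and Gbp9 (ratio 1.15, 95% interval 0.865 to 1.53) and Gbp4 and Gbp5 (1.01, 0.321 to 3.28) did not differ beyond counting error. By 60 min in WT the order was Gbp2, Gbp3, Gbp5, Gbp7, Gbp9, Gbp6 and Gbp4. Gbp5, last at 0 min, then stood at 3.46 CPM per kb, next after Gbp3, and Gbp3 did not differ from it beyond counting error (ratio 1.13, 0.936 to 1.36), nor did Gbp7 from Gbp9 (1.27, 0.962 to 1.69). In KO at 60 min the order was Gbp2, Gbp3, Gbp9, Gbp7 and Gbp4, with Gbp5 and Gbp6 at 0. There the interval of neighbours excluded 1 only between Gbp7 and Gbp4 (ratio 20, 3.08 to 843).

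**Figure D3:**
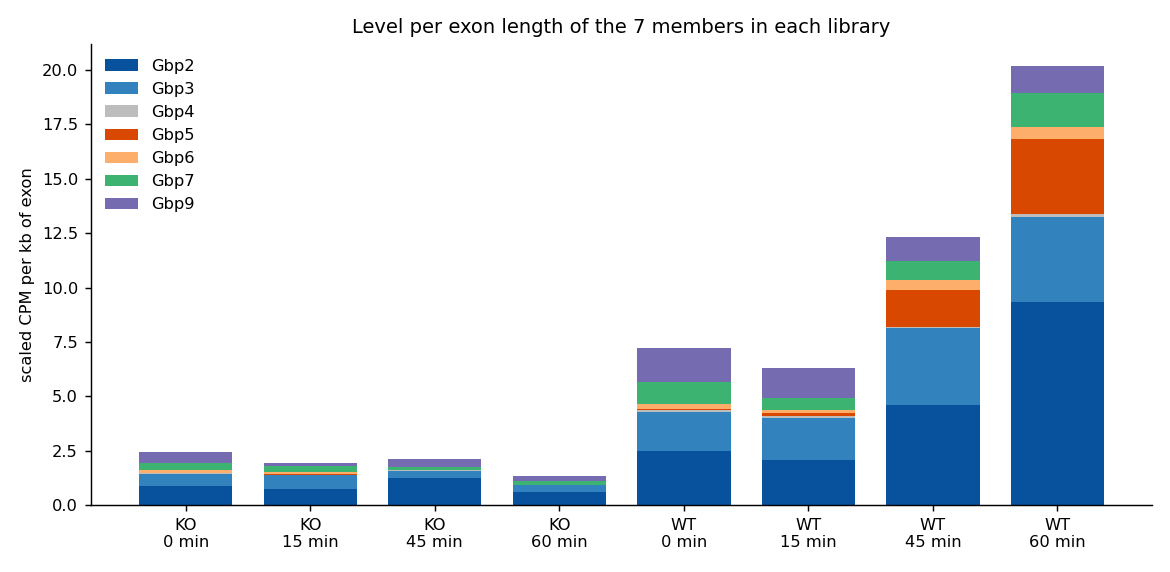
Level per exon length (TMM-scaled CPM per kb of exon, linear axis from 0) of the 7 members stacked for each library, KO libraries left and WT libraries right, 0 to 60 min from left to right. The stack was 1.35 CPM per kb in KO at 60 min and 20.2 CPM per kb in WT at 60 min, where Gbp5 made up 17.2% and Gbp2 46.3% of it.

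The genotypes were compared over all 8 libraries with time as a block. With 1 library per genotype and time, the spread in this fit holds the change of the genotype gap between times. It is not a spread between replicates, and a gap that changes with time widens the SE. Of the 7 members, 5 were called lower in KO and 0 higher, where 9.44% of all genes tested were called lower and 6.81% higher (edgeR, adjusted p under 0.05). The members' median log2 fold change was -2.14, against 0.01 for all genes tested. Gbp3 averaged 1.51 ± 0.56 CPM in KO and 9.11 ± 3.56 CPM in WT (SD over the 4 times, n = 4 each), a log2 fold change of -2.51 ± 0.32 (SE; edgeR adjusted p = 0.000537). Gbp2 stood at -2.25 ± 0.34 on the log2 scale (adjusted p = 0.00144). The value of Gbp9 was -2.14 ± 0.24 (adjusted p = 0.000292) and that of Gbp7 -2.13 ± 0.27 (adjusted p = 0.000537), so these 4 differed among themselves by about the size of their errors. Gbp5 stood apart with 2 counts in KO and 494 in WT over all times, a 235-fold lower level (95% interval 64.7 to 1950; edgeR adjusted p = 3.75e-05). Gbp6, at -2.11 ± 0.67 (adjusted p = 0.0587), and Gbp4, at -1.56 ± 0.50 (adjusted p = 0.0600), did not pass. Without the KO library at 0 min all 7 were called lower, where 9.71% of all genes tested were called lower and 6.55% higher. Their median was then -2.52. Gbp6 then stood at -2.90 ± 0.75 (adjusted p = 0.0255) and Gbp4 at -2.08 ± 0.59 (adjusted p = 0.0361), and the values of Gbp3, Gbp2, Gbp9 and Gbp7 were -2.85, -2.52, -2.41 and -2.33. In 6 of the 7, all except Gbp6, every KO library lay below every WT library, against 7.75% of all genes tested.

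At 45 and 60 min, 6 of the 7 members were called lower in KO, all except Gbp4, and 0 higher, where 7.88% of all genes tested were called lower and 3.92% higher. The median over the members was -2.91 on the log2 scale, against 0.01 over all genes tested, and stayed at -2.91 with Gbp5 set to its bound. Gbp3 had the smallest error, at -3.53 ± 0.26 (SE; edgeR adjusted p = 2.92e-06). Gbp2 stood at -2.91 ± 0.37 (adjusted p = 0.000254) and Gbp7 at -2.84 ± 0.37 (adjusted p = 0.000292). Gbp9 stood at -2.08 ± 0.29 (adjusted p = 0.000466), and Gbp4 at -2.00 ± 0.74 (adjusted p = 0.111). Without the KO library at 0 min the same 6 were called lower, where 7.98% of all genes tested were called lower. In this late comparison the p-values measure the spread between single libraries of neighbouring times, since nothing says that any came from separate cultures.

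The leukocyte markers moved with the same contrast. Lyz2, the macrophage lysozyme gene, had 7, 3, 0 and 0 counts in KO and 228, 182, 115 and 147 in WT, and Itgam, an integrin of myeloid cells, 4, 0, 3 and 1 in KO and 84, 53, 47 and 45 in WT. Cd68 was measured at 93, 77, 67 and 78 counts in KO and 131, 119, 88 and 75 in WT and was not called (log2 fold change -0.29 ± 0.15, edgeR adjusted p = 0.209). The part of these cells' RNA in the lower level of the GBPs in KO was not tested. Within WT, the summed leukocyte markers were 74.2, 68.5, 56.5 and 52.0 CPM at 0, 15, 45 and 60 min. The level of GBP RNA in those cells was not measured. The endothelial markers, summed, were at 12.8 to 18.2 CPM in KO and 7.39 to 10.2 CPM in WT, and Cldn5 was at 0 in every library. Of the 9 listed, 3 were called higher in KO (6.81% of all genes tested) and 1 lower (9.44%).

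**Figure D4:**
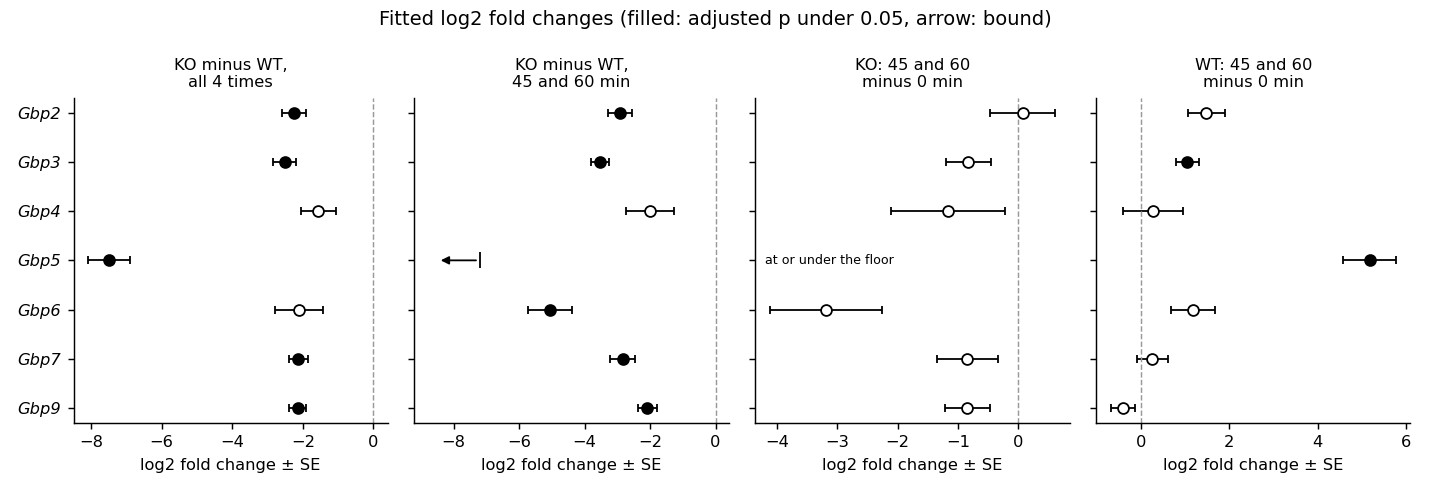
Fitted log2 fold changes with their SE (edgeR) for the 7 members in 4 comparisons: KO minus WT over all times, KO minus WT at 45 and 60 min, and the mean of 45 and 60 min minus 0 min in KO and in WT. Filled points passed the adjusted threshold, the arrow for Gbp5 starts at its bound (at least 148-fold lower), and the fold of Gbp5 in KO is not drawn since its counts were at or under the floor; in KO no point is filled, and in WT those of Gbp5 and Gbp3 are.

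At single times the genotypes were compared without a test. A member was counted where the levels differed at least 2-fold, the 95% interval excluded 1 and the higher library had at least 20 counts. By this rule 4, 4, 6 and 6 of the 7 members were lower in KO at 0, 15, 45 and 60 min, and 0 were higher at any time. The share of all genes lower in KO by the same rule was 3.8%, 4.09%, 6.49% and 6.65%, and the share higher 2.15%, 2.18%, 3.2% and 2.84%. The 4 members at 0 and 15 min were Gbp2, Gbp3, Gbp7 and Gbp9. Their lower level in KO before TNF was seen in 1 pair of libraries, of which KO at 0 min stood apart in its markers. Gbp5 and Gbp6 were added at 45 and 60 min, and Gbp4 never reached 20 counts.

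**Figure D5:**
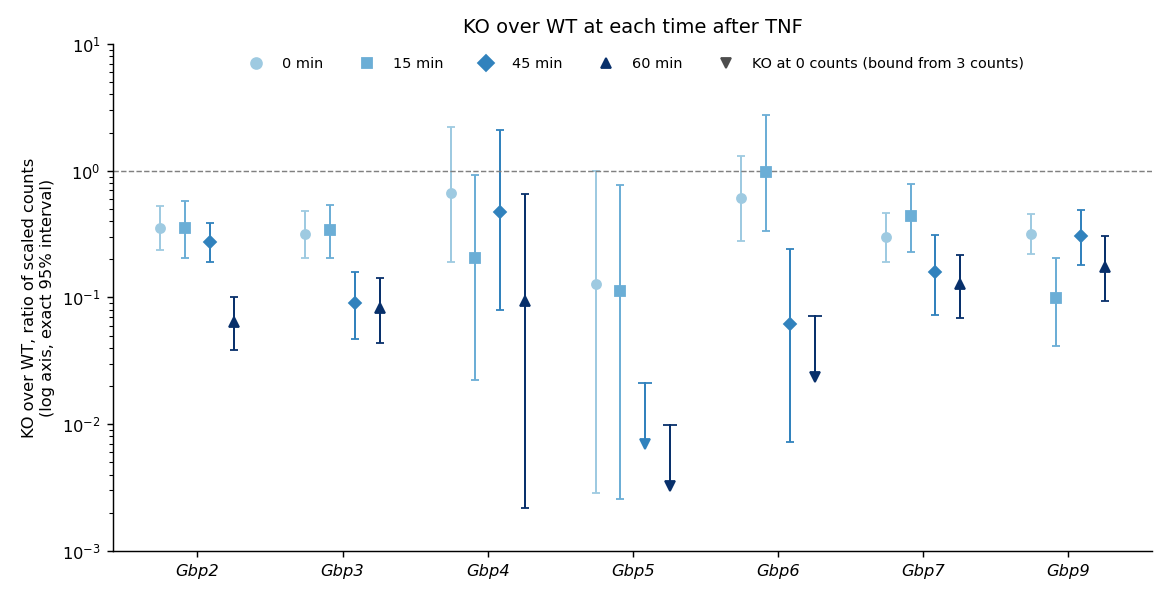
Ratio of KO to WT in scaled counts for each member at each time (log axis), with exact 95% counting intervals; arrows mark members at 0 counts in KO, drawn down from the ratio that 3 counts would give. Gbp2 was at 0.353 at 0 min and 0.0639 at 60 min, while Gbp9 was at 0.319 at 0 min and 0.175 at 60 min.

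After TNF in KO cells, 0 of the 7 members were called in either direction at 45 and 60 min against 0 min, where 1.32% of all genes tested were called higher and 0.518% lower. DESeq2 and limma-voom also called 0. Gbp3 stood at -0.83 ± 0.38 on the log2 scale (edgeR adjusted p = 0.280). Gbp6 stood at -3.19 ± 0.93 on the log2 scale (edgeR adjusted p = 0.101), from 13 counts at 0 min and 2 and 0 counts late. Gbp7 and Gbp9 were each at -0.84, with SEs of 0.51 and 0.37. The members' median was -0.84 and that of all genes tested -0.01. These values rest on the KO library at 0 min. With the KO baseline from 15 min, still 0 were called, where 0.478% of all genes were called higher and 0.346% lower. Gbp9 then stood at 1.01 ± 0.54, Gbp7 at -0.55 ± 0.58 and Gbp6 at -3.05 ± 1.03. By the rule for single libraries, which keeps KO at 0 min as its base, 1 of the 7 was lower than at 0 min at each time, Gbp9 at 15 and 60 min and Gbp7 at 45 min, and 0 were higher. By this rule 1.34%, 3.21% and 3.71% of all genes were lower at 15, 45 and 60 min and 0.682%, 2.98% and 3.47% higher.

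After TNF in WT cells, 2 of the 7 members, Gbp5 and Gbp3, were called higher and 0 lower, where 4.17% of all genes tested were called higher and 1.31% lower. The members' median log2 fold change was 1.05 and that of all genes tested 0.00. By the rule for single libraries, 0, 2 and 4 of the 7 were higher than at 0 min in WT at 15, 45 and 60 min, against 0.99%, 4.72% and 5.73% of all genes, and 0 were lower, against 1.37%, 3.25% and 3.83%. Those at 45 min were Gbp5 and Gbp6, and Gbp2 and Gbp3 were added at 60 min. Gbp6 at 60 min was 2.51 times its 0 min level (1.44 to 4.55), and Gbp7 was 1.53 times (1.16 to 2.04). With 0 and 15 min together as the baseline, 4 of the 7 were called higher. That setting called 1097 of the 15049 genes tested higher, against 628 with 0 min alone.

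The difference between the responses to TNF in KO and in WT was tested itself. Of the 7 members 0 passed the threshold in the edgeR test, where 0.492% of all genes tested were called lower. Gbp3 stood at -1.88 ± 0.46 (log2, edgeR adjusted p = 0.127) and Gbp6 at -4.37 ± 1.05 (adjusted p = 0.121), neither of them called. DESeq2 and limma-voom also called 0. Gbp5 had counts at or under the floor in KO at both ends, which leaves the KO response unmeasured. The fitted values of the other 6 were below 0. The value nearest to 0 was that of Gbp9, at -0.44 ± 0.46 (adjusted p = 0.961). With the baseline of both genotypes from 15 min, 0 of the 7 were called, where 0.126% of all genes were called lower. Gbp3 then stood at -1.97 ± 0.48, Gbp6 at -5.04 ± 1.17, Gbp4 at 0.23 ± 1.47 and Gbp9 at 1.24 ± 0.61. In simulated counts for all 15049 genes tested, 56.1% of 66 4-fold changes in this difference were recovered. That share was not computed for the members alone, so it does not give the power for them. Whether the simulated spread matched that between these libraries was not tested.

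Across the 8 libraries the members moved closely with one another. The Pearson correlation of their log2 levels was highest between Gbp3 and Gbp7 (r = 0.956) and between Gbp2 and Gbp5 (0.946), and lowest between Gbp9 and both Gbp5 and Gbp6 (0.677 for each). The 8 points share genotype, depth and scaling and are no replicates. Among the 11102 genes that averaged 20 counts or more, those most like the members' sum were Gsdmd (r = 0.989), Man1a (0.988), H2-D1 (0.987), H2-Q4 (0.986) and Arl13b (0.986), followed by Dtx3l (0.981), Atp8b4 (0.980), H2-K1 (0.978), Ankhd1 (0.976) and Abcg1 (0.975). Gsdmd, which encodes the pore-forming gasdermin D, had 61, 35, 29 and 31 counts in KO and 136, 142, 252 and 310 in WT. The H2 genes encode class I histocompatibility heavy chains, and reads of such near-identical genes are hard to place, so their counts are uncertain. H2-K1 had 72, 70, 55 and 39 counts in KO and 267, 294, 952 and 1168 in WT.

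The nearest patterns differed between members. For Gbp5 they were those of Nub1 (r = 0.998), Nfkbie (0.992), an inhibitor of NF-kB, and Gsap (0.991). Nfkbie had 28, 18, 21 and 20 counts in KO and 55, 95, 1100 and 1211 in WT. For Gbp9 they were Sycp2 (0.994), Itgam (0.980) and Trem2 (0.973), of which Itgam and Trem2 are myeloid genes. Trem2 had 4, 0, 1 and 0 counts in KO and 85, 58, 54 and 50 in WT. For Gbp2 they were Ntn1 (0.981), Angptl4 (0.974) and Rnf150 (0.971), for Gbp3 H2-Q4 (0.995), Man1a (0.993) and Gsdmd (0.992), and for Gbp7 Arl13b (0.984), Sept8 (0.981) and Slc43a2 (0.979).

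Upstream of the GBPs, the interferon genes themselves gave next to nothing. Ifng and Ifnb1 had 0 counts in all 8 libraries, which allows at most 0.265 CPM in any of them, and Ifna4 had 1 count, in WT at 60 min. Of 13 tested genes of interferon signalling, 0 were called higher after TNF in KO and 5 in WT, against 1.32% and 4.17% of all genes. Ifngr1, a chain of the interferon-gamma receptor, had 222, 122, 156 and 145 counts in KO and 165, 152, 495 and 452 in WT, and its late WT value was 1.63 ± 0.21 (log2, edgeR adjusted p = 0.000635). The difference of responses passed for Ifngr1 (-1.82 ± 0.28, adjusted p = 0.0131) and for Ifnar2, a chain of the type I interferon receptor (-1.57 ± 0.30, adjusted p = 0.0464), against 0.492% of all genes called lower. Both calls were lost with 15 min as the baseline of both genotypes: Ifngr1 stood at -1.53 ± 0.30 (adjusted p = 0.0885) and Ifnar2 at -1.35 ± 0.31 (adjusted p = 0.177), and 0.126% of all genes were called. Over all times 4 of the 13 were called lower in KO (9.44% of all genes) and 1, Stat3, higher (6.81%). Without KO at 0 min 8 were lower (9.71%) and 1 higher (6.55%). At 45 and 60 min 8 were lower (7.88%) and 0 higher. The medians were -0.51 and -0.71.

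Of 7 tested IRF genes, 0 rose after TNF in KO (1.32% of all genes) and 2 in WT, Irf1 and Irf5 (4.17%). Irf1, which encodes a factor that binds ISREs, had 176, 114, 203 and 234 counts in KO and 224, 1162, 4053 and 3110 in WT. In WT it was thus high by 15 min. A change of Gbp5 by then was not detectable at this depth, so the order of the 2 genes was not tested. The late WT value of Irf1 was 4.11 ± 0.24 (edgeR adjusted p = 1.49e-06), and its difference of responses -3.43 ± 0.30 (adjusted p = 0.000149). With 15 min as the baseline, at which Irf1 already had 1162 counts in WT, that difference was -0.88 ± 0.30 and was not called (adjusted p = 0.588). Over all times 6 of the 7 were called lower in KO, where 9.44% of all genes were called lower, with a median of -1.23. Among them Irf8, a factor of myeloid cells, had 2, 3, 1 and 5 counts in KO and 43, 34, 45 and 57 in WT. Without KO at 0 min 5 of the 7 were called lower (9.71% of all genes). Of the 5 NF-kB subunit genes, 1, Nfkb2, rose after TNF in KO (1.32% of all genes) and all 5 in WT (4.17%). The KO call of Nfkb2 was lost with 15 min as the baseline (edgeR adjusted p = 0.0769). Relb, which encodes the subunit with an activation domain that the KO genotype does not target, had 195, 128, 144 and 169 counts in KO and 229, 356, 1556 and 1412 in WT. Its difference of responses was -2.76 ± 0.27 (adjusted p = 0.000277), and -1.96 ± 0.27 with 15 min as the baseline (adjusted p = 0.0123). In that difference 3 of the 5 passed (0.492% of all genes called lower), and 2 with 15 min as the baseline (0.126%).

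Among the partners of the GBPs in inflammasomes and cytosolic sensing, 0 of 10 tested genes rose after TNF in KO (1.32% of all genes) and 2 in WT, Casp4 and Gsdmd (4.17%). Casp4, whose product senses lipopolysaccharide in the cytosol and cleaves gasdermin D, had 21, 7, 6 and 2 counts in KO and 19, 17, 115 and 125 in WT. Its counts were close at 0 min and far apart late, with a difference of responses of -4.75 ± 0.72 (edgeR adjusted p = 0.0102). With 15 min as the baseline it was -3.79 ± 0.93 and was not called (adjusted p = 0.220). Over all times 7 of the 10 were called lower in KO, with a median of -2.47, where 9.44% of all genes were called lower. Without KO at 0 min 7 were lower (9.71% of all genes), with a median of -3.27. Nlrp3, the sensor that Gbp5 acts on, had 0 counts in every KO library and 26, 106, 102 and 45 in WT. Of 7 tested immunity-related and Mx GTPases, relatives in the defence of vacuoles, all 7 were called lower in KO over all times (9.44% of all genes). Their median was -1.23, and without KO at 0 min 6 were lower (9.71%). Of the 7, 1, Irgq, rose after TNF in both genotypes, where 1.32% of all genes rose in KO and 4.17% in WT. Irgq was called in both with 15 min as the baseline too (0.478% and 3.24%). Irgm2 had 65, 48, 38 and 34 counts in KO and 149, 109, 130 and 173 in WT (genotype log2 fold change -1.53 ± 0.20, adjusted p = 0.000613). The leukocyte markers given above moved with these genotype differences, and their part in them was not tested.

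Most type I interferon-stimulated genes were lower in KO, and 0 were called higher after TNF in WT against 0 min. Of 23 tested, 21 were called lower in KO over all times, with a median of -1.31, and 19 at 45 and 60 min, with a median of -1.67, where 9.44% and 7.88% of all genes were called lower. Without KO at 0 min, thus over 15, 45 and 60 min, 20 were lower (9.71% of all genes). The summed leukocyte markers, at 6.11 to 8.38 CPM in KO and 52.0 to 74.2 CPM in WT, moved with these differences too, and their part in them was not tested. After TNF in WT, 0 were called higher (4.17% of all genes) and 1, Ifit3, lower (1.31% of all genes; -1.32 ± 0.29, edgeR adjusted p = 0.0187), with 45, 28, 27 and 27 counts in KO and 124, 56, 40 and 52 in WT. With 15 min as the baseline in WT, 1 of the 23, Ddx58, was called higher (0.71 ± 0.18, edgeR adjusted p = 0.0432), against 3.24% of all genes, and 0 lower. Of the 5 tested enzymes that attach and finish the lipid anchor of some GBPs, 0 were called in any of the 5 comparisons. In these, 0.492% (difference of responses) to 9.44% (genotype over all times) of all genes were called lower. A count of 0 among 5 genes is near those shares. Of 10 autophagy conjugation genes, which help to load these GTPases on vacuoles, 2 were called higher in KO over all times, Gabarapl1 (0.43 ± 0.10, adjusted p = 0.0159) and Map1lc3a (0.57 ± 0.14, adjusted p = 0.0192), where 6.81% of all genes were called higher. Without KO at 0 min 1 of the 10 was called higher (6.55% of all genes), and Map1lc3a was not called (0.53 ± 0.17, edgeR adjusted p = 0.0566). In the other comparisons 0 of the 10 were called, where 0.492% to 7.88% of all genes were called lower.

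The other GBP genes of the mouse were too low to test. Gbp8 had 1, 0, 0 and 0 counts in KO and 8, 10, 5 and 3 in WT, Gbp10 and Gbp11 at most 2 in any library, and Gbp2b 0 in all 8. Of the windows of 50 bases of Gbp10, 84.1% also occur in another gene (73.3% in Gbp6), so its low counts are uncertain. Of the 25 other genes between the members or within 200 kb of them, 6 were tested. Pdlim5, beside the chromosome 3 cluster, rose after TNF in both genotypes, with 1433, 1145, 3514 and 2287 counts in KO and 1100, 1303, 3692 and 2751 in WT. With 15 min as the baseline the KO call was lost (1.16 ± 0.27, adjusted p = 0.0718). Its difference of responses was -0.26 ± 0.36 (edgeR adjusted p = 0.974). Abcg3, on chromosome 5, was the only tested neighbour called lower in KO, with 0 counts in each KO library and 16, 20, 5 and 9 in WT. Of all genes, 9.44% were called lower in KO over all times.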

How the data were processed

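The authors deposited raw counts per gene (unnormalized, whole numbers) with exon coordinates and lengths, per the file headers. The submitters' processing notes name cutadapt 1.12, STAR, featureCounts 1.5.0, DESeq2 and mm10. How strand and multi-mapping reads were handled and which annotation was used is not stated there, so overlapping genes are uncertain. Of 45706 rows, 98.77% matched a symbol.

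A gene was kept with 10 or more counts in 2 or more libraries. Counts were scaled by TMM and tested with edgeR 4.0.16 (quasi-likelihood, R 4.3.3), adjusted over the 15049 genes at a threshold of 0.05. Responses to TNF, their difference and the genotypes at 45 and 60 min came from 6 cell means (2 residual degrees of freedom, from the pairs of 45 and 60 min), and the genotype comparison from a time block (3 residual degrees of freedom). SE is the size of the log2 fold change over the root of F. CPM divides counts by the TMM-scaled library size, and ratios carry exact Clopper-Pearson intervals at 95%. Intervals and floors of 3 counts cover counting error only, since PCR copies are not independent molecules. No pair of libraries agreed within sampling noise (chi-square per degree of freedom of at least 8.43). In simulated counts, 97% of 4-fold genotype changes, 93.9% of late genotype changes, 86.4% of late WT and 84.8% of late KO changes were recovered. Each share is over 66 changed genes among the 15049, was not computed for the members alone and does not give the power for them. Whether the simulated spread matched that between these libraries was not tested.

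Named genes are the members, up to 4 called genes with the smallest p per list and comparison, and the genes with the highest correlation, of which the text gives a part, and 1 gene is left out. The members and lists were chosen with earlier results of these data known. Alternatives were DESeq2 1.42.0, limma-voom 3.58.1, other scalings, filters, baselines and times, robust empirical Bayes, and leaving out each library. Library totals, 12359817 to 15607331 counts, limit low members such as Gbp4. Figures used matplotlib 3.10.9.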

Additional observations from a re-analysis of the deposited data

How the results depend on the processing

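The 6 members called lower in KO at 45 and 60 min numbered 6 in every alternative run except the filter of at least 20 counts in 4 libraries, which removes Gbp4, Gbp5 and Gbp6 and left 4 called. The genotype comparison over all times gave 4 to 7 called members, with 7 under total counts, with no filter and without the 0 min libraries. The late WT count of 2 became 1 with DESeq2, with no filter and with the stricter filter, 4 with 0 and 15 min together as baseline, and 1 to 3 when each library was left out in turn, with 1 without WT at 60 min. The late KO count of 0 became 1 (Gbp6) with total counts and with 0 and 15 min as baseline, and 0 to 1 with each library left out, with 1 without WT at 60 min. The difference of responses, 0 called, became 1 (Gbp6) with total counts, 2 (Gbp3 and Gbp6) with 0 and 15 min as baseline, and 0 to 1 with each library left out, with 1 without WT at 45 min or at 60 min. The causes were not tested. Signs turned for members that were not called. Late WT Gbp7 was at -0.22 without WT at 60 min (range with each library left out -0.22 to 0.60), and late WT Gbp4 at -0.098 with 0 and 15 min as baseline and -0.41 with 15 min. Late KO Gbp2 was at -0.024 with limma-voom, -0.17 with total counts and -0.56 without KO at 45 min (range -0.56 to 0.52), and late KO Gbp9 at 1.01 with the 15 min baseline. The difference of responses of Gbp9 was 0.025 with 0 and 15 min as baseline and 1.24 with 15 min, and that of Gbp4 0.23 with 15 min. Scaling by total counts moved the median of all genes by -0.21 in late WT, -0.20 in late KO, -0.17 in the late genotype comparison and -0.18 over all times. The share of higher calls was then 52.1% in place of 76.1%, 26.9% in place of 71.7%, 14.6% in place of 33.2% and 14.1% in place of 41.9%. Over all genes, DESeq2 called 427 in late WT in place of 825, 153 in late KO in place of 276, 910 at late times between genotypes in place of 1776 and 1535 over all times in place of 2446, and no time block gave 1068. With no filter the counts were 278 in late WT, 17 in late KO, 14 in place of 75 in the difference of responses and 1062 at late times between genotypes. With 0 and 15 min as baseline they were 1669 in late WT, 1144 in late KO and 198 in the difference, and with 15 min 124 in late KO and 19 in the difference. Leaving out each library gave 169 to 782 in late KO, 49 to 160 in the difference and 1155 to 2421 over all times, the last lowest without KO at 45 min. At this depth, values under 20 counts, which Gbp4 had in every library and all other members except Gbp2 in some, allow only wide intervals.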
